A study of Mus musculus with 6 samples.

Results

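The genes described here encode the enzymes that make cholesterol, the regulators that set the output of those enzymes, and proteins that take up, carry and export the sterol. They were matched by symbol to the 49671 Ensembl gene identifiers of the deposited count table, and all 29 listed genes were found: 19 synthesis enzymes, 5 SREBP regulators, 2 genes of uptake and transport and 3 genes of LXR-driven efflux. The cells were LSK cells of BALB/c mouse bone marrow, a sorted fraction defined by lack of lineage markers and by surface Sca-1 and Kit, which contains the blood-forming stem cells and their nearest progeny. In the shCxxc5 group a retrovirus gave the cells a short hairpin RNA against Cxxc5, and in the shCtrl group they carried a retrovirus whose hairpin targets no mouse gene. Cells of both groups were thus retrovirally infected and GFP-positive at the sort, and no germline allele was altered in either. Each group has 3 libraries, numbered 2, 3 and 4, and each library came from 20000 to 50000 sorted cells pooled from several animals. The sources used here do not give the age of the mice, the time after infection or the number of hairpin sequences. Nor do the labels say whether each number was an infection of its own, so the p-values rest on a spread between libraries that may be technical.

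Cholesterol is built from acetyl-CoA through mevalonate and short isoprenoid chains to squalene, which is closed into lanosterol and then trimmed to cholesterol. When sterol in the endoplasmic reticulum runs low, SCAP carries the SREBP transcription factors to the Golgi, where they are cut and released to switch on genes of synthesis and uptake, and the INSIG proteins hold them back when sterol is plentiful. Oxysterols activate the LXR nuclear receptors, which raise the exporters ABCA1 and ABCG1, and in mice these exporters are known to restrain the proliferation of marrow stem and progenitor cells.

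Library totals ran from 16558791 to 27754019 counts in shCxxc5 and from 15002414 to 23285446 in shCtrl. Levels are given as CPM, a library's counts per 1000000, scaled by edgeR's TMM factors. Cxxc5 itself stood at 6.74, 17.4 and 17.9 CPM in shCxxc5 replicates 2, 3 and 4, against 82.2, 59.9 and 57.9 CPM in shCtrl replicates 2, 3 and 4. The 2 libraries labelled replicate 2 stood apart from the other 4, on a first principal component that held 67.6% of the variance. In them Ly6a, which encodes Sca-1, was at 33.1 CPM (shCxxc5) and 46.4 CPM (shCtrl), against 703 to 804 CPM in the other 4 libraries, so their message goes against the Sca-1 part of the LSK label, while Kit was between 82.4 and 110 CPM in all 6. The 10 megakaryocyte markers summed to 1650 CPM in shCxxc5 replicate 2 and 6980 CPM in shCtrl replicate 2, but to 298 to 304 CPM in shCxxc5 and 480 to 482 CPM in shCtrl replicates 3 and 4. The 9 granulocyte and monocyte progenitor markers summed to 5810 CPM in shCxxc5 replicate 2 and 801 CPM in shCtrl replicate 2, and to 1210 CPM in both shCxxc5 and 1020 to 1060 CPM in both shCtrl libraries of replicates 3 and 4. The 4 T cell markers summed to 0.243 to 0.624 CPM in shCxxc5 and 0.169 to 0.624 CPM in shCtrl, with Cd3e at 0 counts in all 6. The 5 B cell markers summed to 13.8 to 30.7 CPM in shCxxc5 and 14.5 to 33.4 CPM in shCtrl. Most of that was Cd79b, at 12.5 to 32.6 CPM over the 6 libraries. Results are therefore given for all 6 libraries and for replicates 3 and 4 alone, a comparison chosen with this structure known.

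The synthesis enzymes, summed, were more abundant in shCxxc5 than in shCtrl cells within each replicate number. The 3 LXR and efflux genes, summed, were less abundant. The 19 synthesis genes summed to 1030, 1630 and 1630 CPM in shCxxc5 replicates 2, 3 and 4, against 909, 1310 and 1330 CPM in shCtrl replicates 2, 3 and 4. The 3 LXR and efflux genes summed to 123, 141 and 138 CPM in shCxxc5, against 148, 153 and 157 CPM in shCtrl. For this sum the groups did not overlap, although they did for each of the 3 genes taken singly. The sum joins the exporters Abca1 and Abcg1 with Nr1h2, which encodes an LXR receptor. Abcg1 stood at 59.2 CPM in shCtrl replicate 2, below 77.8 and 74.1 CPM in shCxxc5 replicates 3 and 4. Abca1 stood at 4.52 CPM in that shCtrl library, below 8.07 and 7.59 CPM. The exporters without Nr1h2 thus did not separate the groups. In the replicate 2 pair Nr1h2 stood at 63.6 CPM in shCxxc5 against 84.4 CPM in shCtrl. Abcg1 stood at 53.6 against 59.2 CPM there, and Abca1 was higher in shCxxc5, at 5.66 against 4.52 CPM. The 5 SREBP regulators summed to 625, 640 and 617 CPM in shCxxc5, against 697, 574 and 570 CPM in shCtrl, and the 2 uptake and transport genes to 79.0, 102 and 99.4 CPM in shCxxc5, against 106, 86.2 and 88.3 CPM in shCtrl. Both of these arms were lower in shCxxc5 in the replicate 2 pair and higher in the pairs of replicates 3 and 4. In bulk RNA, fewer cells of a type and less RNA per cell cannot be told apart. The 12 S phase genes moved the same way as the synthesis arm, with sums of 3950, 4800 and 4700 CPM in shCxxc5 against 3690, 4170 and 4220 CPM in shCtrl, and 10 of the 12 were called higher in replicates 3 and 4, where 11% of all genes tested were; their part in the sterol result was not tested.

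**Figure D1:**
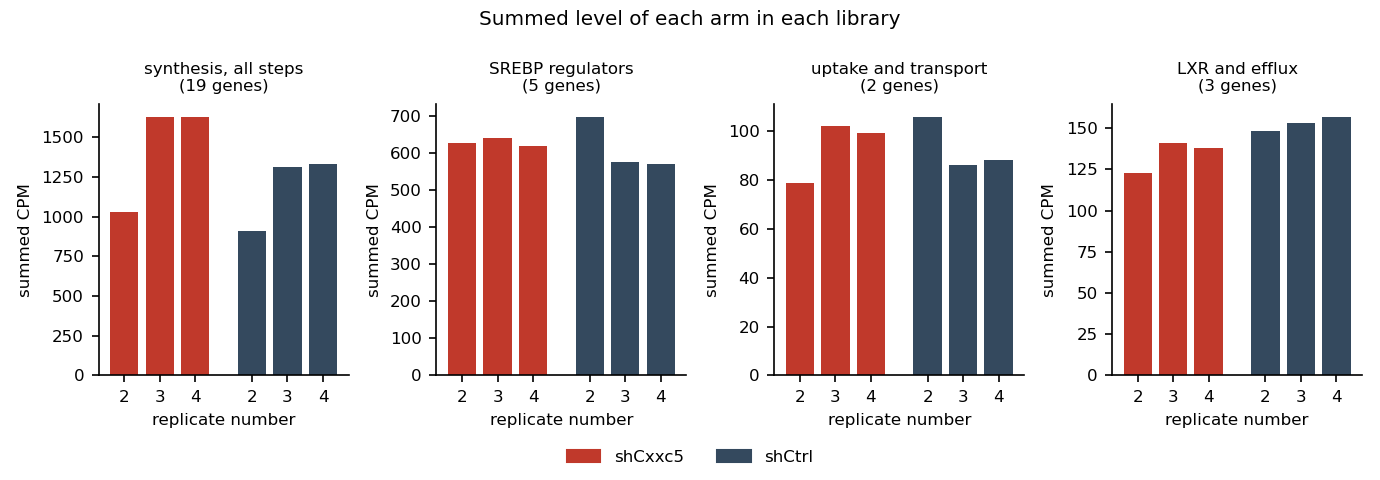
Summed CPM (y axis) of the genes of each arm in each library, with replicate numbers on the x axis, shCxxc5 libraries in red on the left of each panel and shCtrl libraries in blue on the right. Synthesis is lowest in both libraries of replicate 2, at 1030 CPM in shCxxc5 and 909 CPM in shCtrl. The LXR and efflux arm includes the receptor gene Nr1h2. Each of its shCxxc5 bars, at 123 to 141 CPM, lies below each shCtrl bar, at 148 to 157 CPM. Abca1 and Abcg1 without Nr1h2 do not separate the groups.

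Within pairs of equal replicate number the synthesis genes had a median log2 ratio of shCxxc5 over shCtrl of 0.17, 0.30 and 0.21 in replicates 2, 3 and 4. These ratios used log2 CPM with a prior count of 2. The SREBP regulators had medians of -0.20, 0.13 and 0.12, and the efflux arm had medians of -0.14, -0.13 and -0.20. Over all 14637 genes tested the medians were -0.04, -0.009 and -0.005. Of the 29 sterol genes, 14 were higher in shCxxc5 in all 3 pairs (13 of the 19 synthesis enzymes, and Insig1), where 19.0% of all genes tested were. Only Insig2, Nr1h2 and Abcg1 among the 29 were lower in all 3 pairs, where 22.4% of all genes were. The 5 synthesis enzymes whose pairs disagreed on direction with a negative ratio in replicate 2 or 3 were Mvk, Idi1, Ggps1, Hsd17b7 and Dhcr7, and Tm7sf2 stood at -0.01 in replicate 4.

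**Figure D2:**
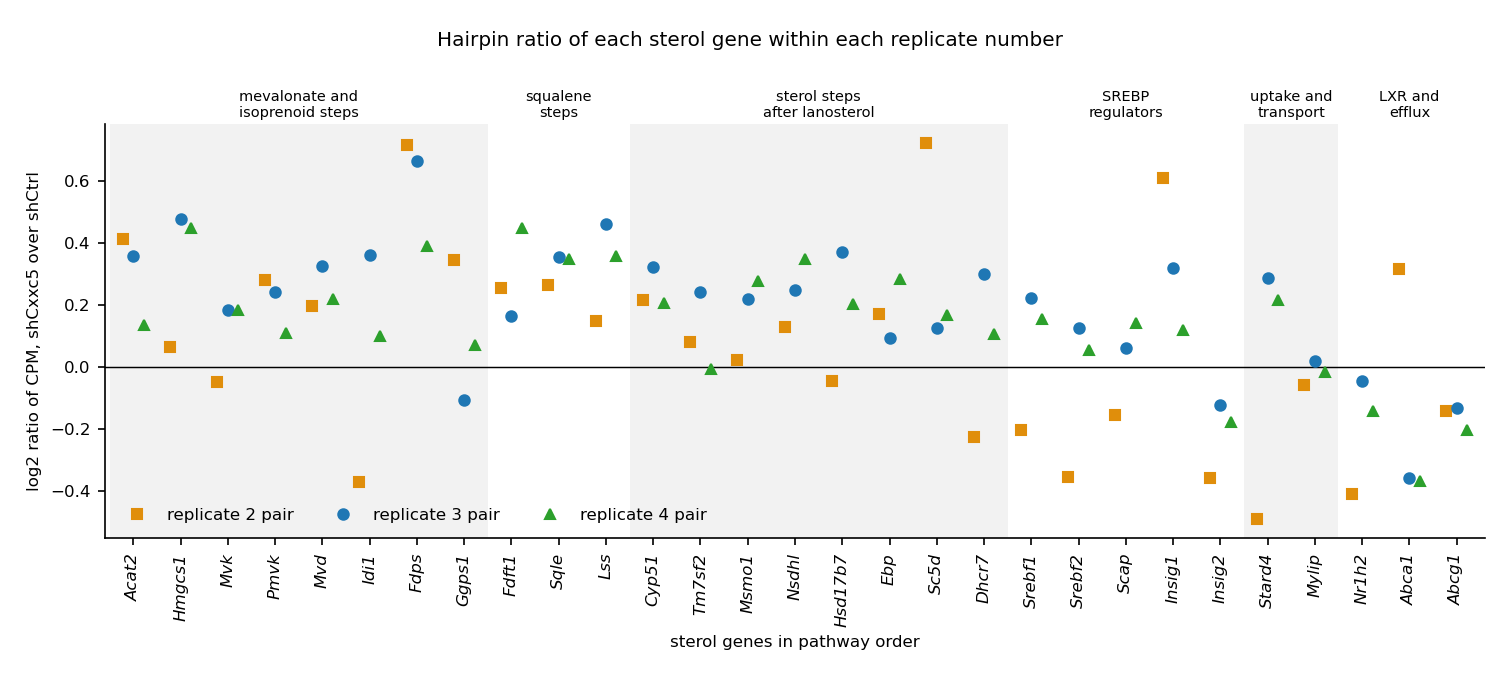
Log2 ratio of CPM, shCxxc5 over shCtrl (y axis), of each sterol gene in pathway order (x axis), within replicate 2 (squares), replicate 3 (circles) and replicate 4 (triangles), with the arms marked by shading. All 3 symbols lie above 0 for 13 of the 19 synthesis enzymes, and the replicate 2 squares of Srebf1, Srebf2, Scap and Stard4 lie below 0 where their circles and triangles lie above it.

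All 29 sterol genes passed the filter on low counts in both fits. Over all 6 libraries none of the 29 sterol genes passed edgeR's quasi-likelihood test at a Benjamini-Hochberg adjusted p of 0.05, and none of the 14637 genes tested did (0%). At an unadjusted p under 0.05 there were 2 sterol genes, Fdps and Lss, among 575 genes. DESeq2 called 19 genes, none of them a sterol gene, and edgeR with the replicate number as a block called 0. With that block 10 sterol genes had an unadjusted p under 0.05, among 1796 genes. In the 4 libraries of replicates 3 and 4, 17 of the 29 sterol genes passed as higher in shCxxc5, where 11% of the 14193 genes tested did, and 2 passed as lower, where 9.00% did, so the count of lower genes did not stand above the share of the whole table. Of the 17, 14 were synthesis enzymes of 19, 2 were SREBP regulators of 5 and 1 was the sterol carrier Stard4; the 2 lower genes were Abca1 and Abcg1 of the efflux arm. For the synthesis arm the median fitted log2 fold change was 0.25 (all 6 libraries) and 0.26 (replicates 3 and 4), against -0.02 and -0.003 for all genes tested. Leaving out 1 library moved the value over all 6 libraries to between 0.10 (without shCtrl replicate 2) and 0.36 (without shCxxc5 replicate 2). In replicates 3 and 4, 10 of the 17 higher calls and neither of the 2 lower calls held without any 1 library; the 10 were Hmgcs1, Mvd, Fdps, Sqle, Lss, Cyp51, Msmo1, Nsdhl, Srebf1 and Stard4. DESeq2 on the same 4 libraries called 12 sterol genes higher and 0 lower. In the same fit 5 of 9 tested megakaryocyte markers were called lower and none higher, and their part in the sterol result was not tested.

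**Figure D3:**
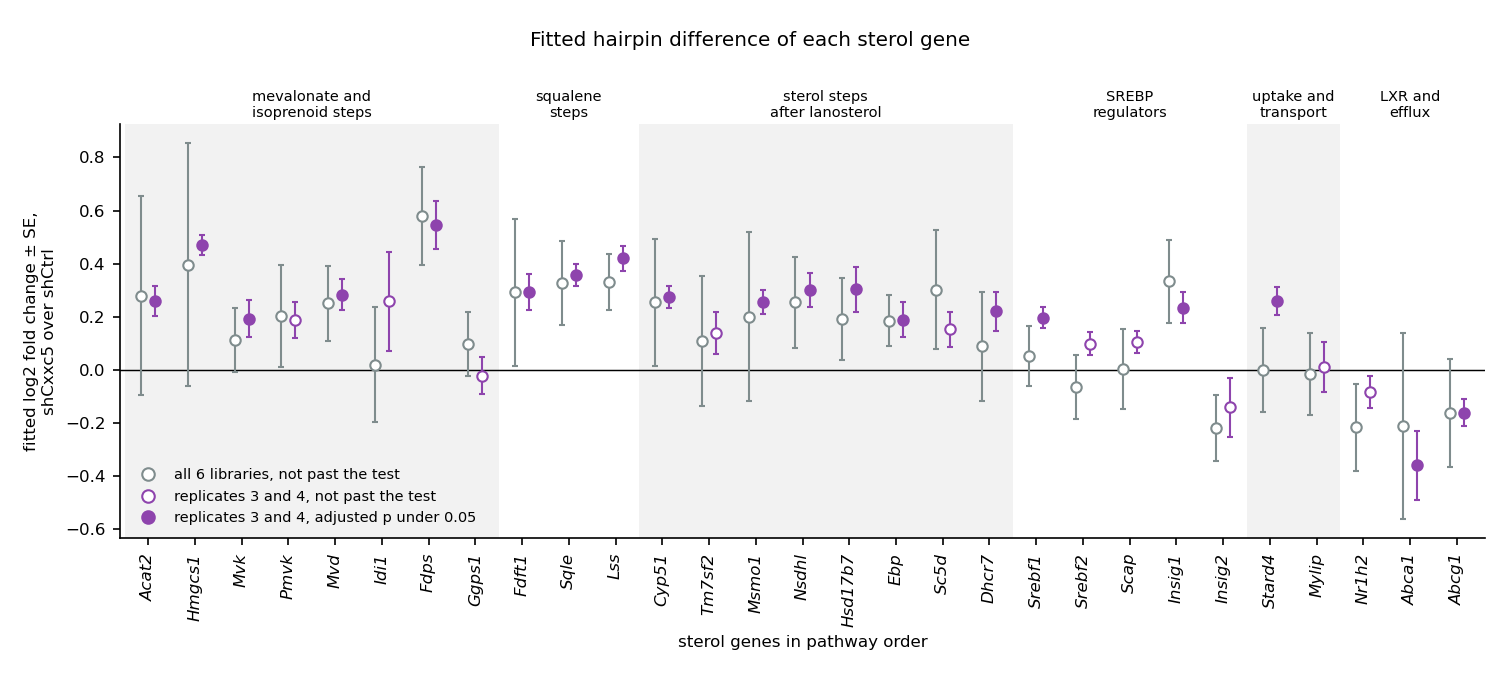
Log2 fold change of shCxxc5 over shCtrl fitted by edgeR, with its standard error (y axis), for each sterol gene (x axis) over all 6 libraries (grey) and in replicates 3 and 4 (purple); filled symbols passed an adjusted p of 0.05. No grey symbol is filled, while 17 purple symbols above 0 and 2 below 0 are.

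The early part of the pathway, from acetyl-CoA to the isoprenoid diphosphates, held Hmgcs1, the synthesis gene of highest mean level per length. This early part also held the largest fold change among the sterol genes in replicates 3 and 4, that of Fdps. Of its 8 genes, 5 rose in shCxxc5 replicates 3 and 4 (Acat2, Hmgcs1, Mvk, Mvd and Fdps) and none fell. Of all genes tested there, 11% rose and 9.00% fell. Acat2, the cytosolic thiolase that joins acetyl-CoA units, had 43.8, 84.4 and 81.3 CPM in shCxxc5 replicates 2, 3 and 4, against 32.8, 65.7 and 74.0 CPM in shCtrl. Each shCxxc5 library lay above the shCtrl library of its number. The groups still overlapped, because shCxxc5 replicate 2 lay below shCtrl replicates 3 and 4. In replicates 3 and 4 Acat2 had a log2 fold change of 0.26 (SE 0.06, edgeR adjusted p = 0.00112), and 0.17, with an edgeR adjusted p of 0.107, without shCtrl replicate 3.

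Hmgcs1, the synthase that makes HMG-CoA, lies on chromosome 13 from 119690379 to 119708260 (GRCm38, plus strand). It had 129, 361 and 343 CPM in shCxxc5 replicates 2, 3 and 4, against 123, 259 and 251 CPM in shCtrl. The replicate 2 libraries held the lowest values of both groups and were close to each other, while shCxxc5 replicates 3 and 4 stood clearly above shCtrl replicates 3 and 4. Its log2 fold change was 0.47 (SE 0.04) in replicates 3 and 4, with an edgeR adjusted p of 1.23e-10, and 0.40 (SE 0.46) over all 6 libraries, with an adjusted p of 0.942. Its exons share 557 bases with the antisense gene Gm48342.

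The kinases and the decarboxylase that turn mevalonate into an isoprenoid unit differed less than Hmgcs1 in replicates 3 and 4. Pmvk, phosphomevalonate kinase, had 35.0, 45.4 and 46.7 CPM in shCxxc5, against 28.8, 38.4 and 43.2 CPM in shCtrl; it was higher in each pair, and its log2 fold change of 0.19 (SE 0.07) in replicates 3 and 4 did not pass (edgeR adjusted p = 0.0529), although with the replicate block it did (adjusted p = 0.0276). Mvd, the decarboxylase, had 50.1, 65.4 and 62.7 CPM in shCxxc5, against 43.7, 52.1 and 53.7 CPM in shCtrl, and rose by 0.28 on the log2 scale (SE 0.06) in replicates 3 and 4 (edgeR adjusted p = 0.000647). Mvk, mevalonate kinase, passed by a narrow margin in replicates 3 and 4 at 0.19 (SE 0.07, edgeR adjusted p = 0.0498), and the call was lost without any 1 of the 4 libraries, under DESeq2, with library totals as scaling and without a filter on low counts. Idi1, the isomerase of the isoprenoid units, was low, at 3.79 to 5.41 CPM over the 6 libraries, and its log2 fold change of 0.26 (SE 0.19) in replicates 3 and 4 did not pass (edgeR adjusted p = 0.371).

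Fdps, farnesyl diphosphate synthase, had 24.2, 29.3 and 29.5 CPM in shCxxc5 replicates 2, 3 and 4, against 14.7, 18.4 and 22.5 CPM in shCtrl. Every shCxxc5 library lay above every shCtrl library, and the pair ratios were 0.72, 0.67 and 0.39 on the log2 scale. Groups without overlap are named here as description only, since their share among all genes tested was not counted. The fitted log2 fold change of Fdps was 0.58 (SE 0.18, unadjusted p = 0.0193, edgeR adjusted p = 0.940) over all 6 libraries and 0.55 (SE 0.09, edgeR adjusted p = 5.48e-05) in replicates 3 and 4. The gene lies on chromosome 3 from 89093588 to 89101959 (minus strand), and 1124 bases of its exons are shared with Gm43738 on the same strand, so the counting could have split or dropped its reads. Ggps1, which makes the geranylgeranyl diphosphate of protein prenylation and so sits on a branch away from sterols, had pair ratios of 0.35, -0.11 and 0.07 and a log2 fold change of -0.02 (SE 0.07) in replicates 3 and 4 (edgeR adjusted p = 0.881).

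All 3 genes of the squalene steps rose in shCxxc5 replicates 3 and 4, where 11% of all genes tested did. All 3 were also higher in each of the 3 pairs, as were 19.0% of all genes tested. Fdft1, squalene synthase, had 34.8, 56.6 and 58.1 CPM in shCxxc5, against 29.1, 50.4 and 42.5 CPM in shCtrl, with a log2 fold change of 0.29 (SE 0.07, edgeR adjusted p = 0.00237) in replicates 3 and 4 that was 0.19 (edgeR adjusted p = 0.0711) without shCtrl replicate 4. Its exons share 774 bases with the antisense gene Ctsb. Sqle, squalene epoxidase, an oxygen-dependent step known to limit flux through the pathway, had 133, 180 and 176 CPM in shCxxc5, against 110, 140 and 138 CPM in shCtrl. The 3 pair ratios of Sqle lay close together, at 0.27, 0.36 and 0.35, although the groups overlapped through shCxxc5 replicate 2. For Sqle the log2 fold change was 0.36 (SE 0.04, edgeR adjusted p = 1.59e-07) in replicates 3 and 4 and 0.33 (SE 0.16, edgeR adjusted p = 0.940) over all 6.

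Lss, the cyclase that folds squalene epoxide into lanosterol, lies on chromosome 10 from 76531588 to 76557138 (plus strand). It had 92.4, 114 and 113 CPM in shCxxc5, against 83.2, 82.9 and 88.0 CPM in shCtrl, which is 106 ± 12.2 CPM against 84.7 ± 2.85 CPM (SD, n = 3 each). The groups did not overlap, and the shCtrl libraries lay within a narrow band that included replicate 2. The log2 fold change of Lss was 0.33 (SE 0.11, unadjusted p = 0.0201, edgeR adjusted p = 0.940) over all 6 libraries and 0.42 (SE 0.05, edgeR adjusted p = 1.42e-07) in replicates 3 and 4.

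**Figure D4:**
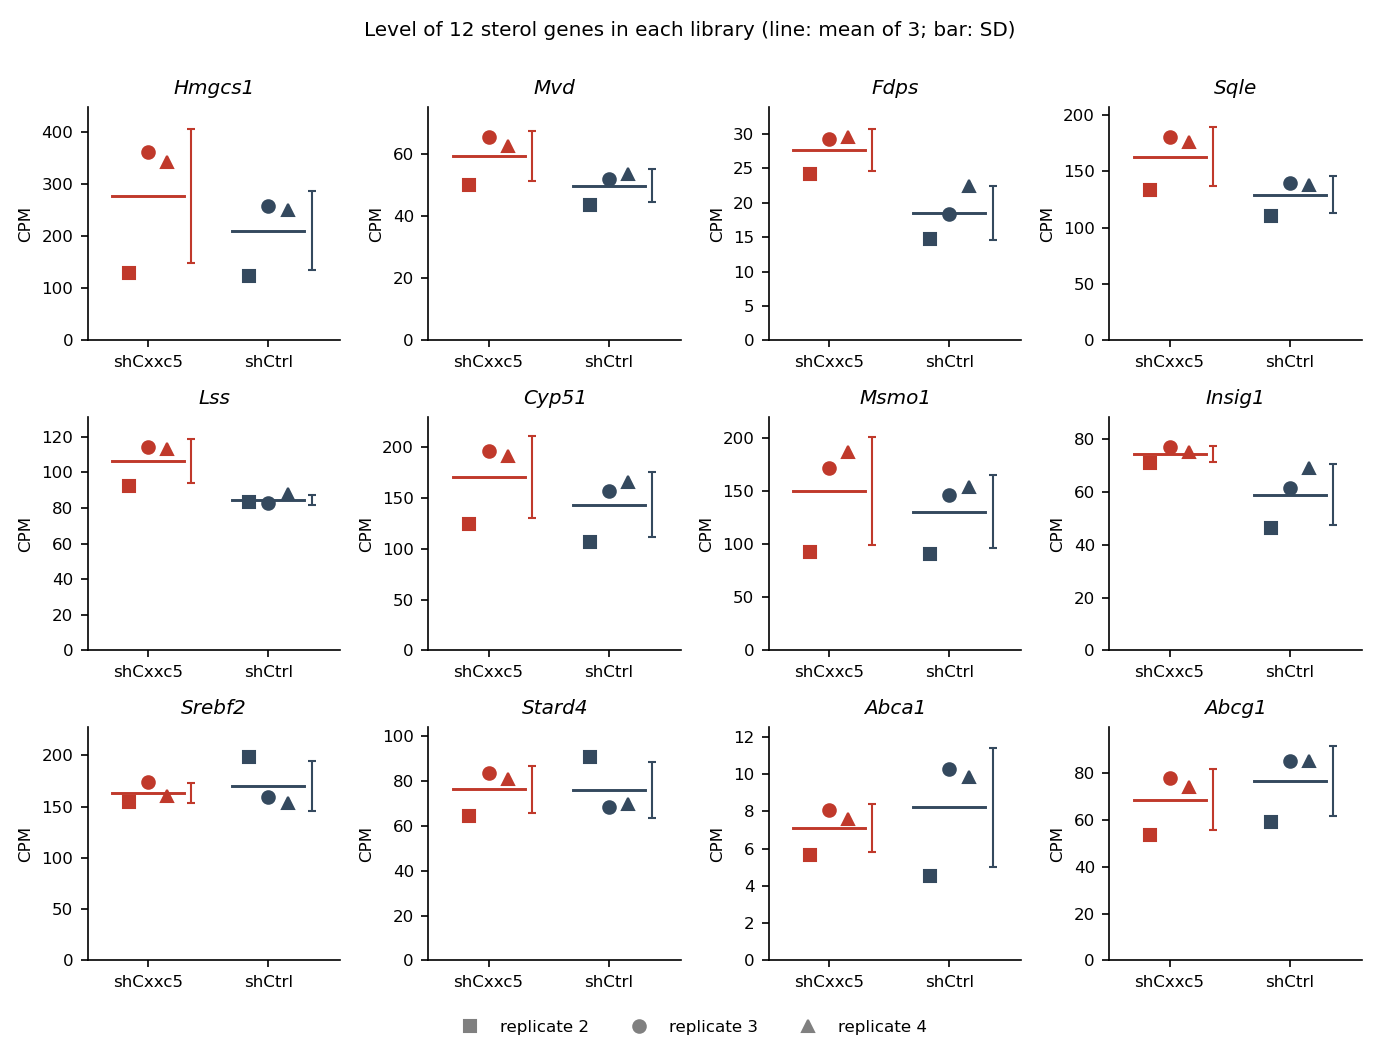
CPM (y axis) of 12 sterol genes in each library, shCxxc5 in red on the left and shCtrl in blue on the right, with squares, circles and triangles for replicates 2, 3 and 4, a line at the mean of the 3 libraries and a bar of 1 SD to each side. Fdps, Lss and Insig1 show no overlap between the groups, while the replicate 2 squares lie low in both groups for Hmgcs1, Cyp51 and Msmo1. The share of all genes tested without overlap was not counted.

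After lanosterol, 6 of the 8 genes rose in shCxxc5 replicates 3 and 4 and none fell. Of all genes tested there, 11% rose and 9.00% fell. Cyp51, the demethylase that acts first on lanosterol, had 124, 196 and 191 CPM in shCxxc5, against 107, 157 and 166 CPM in shCtrl, with a log2 fold change of 0.27 (SE 0.04, edgeR adjusted p = 1.19e-05) in replicates 3 and 4. Msmo1, the methylsterol oxidase, had 92.7, 172 and 187 CPM in shCxxc5, against 91.1, 147 and 154 CPM in shCtrl. As with Hmgcs1, the lowest value of each group was that of replicate 2, and the replicate 2 libraries of Msmo1 differed little from each other. The log2 fold change of Msmo1 was 0.26 (SE 0.04, edgeR adjusted p = 9.69e-05) in replicates 3 and 4 and 0.20 (SE 0.32, edgeR adjusted p = 0.952) over all 6 libraries.

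Nsdhl, the dehydrogenase that works with Msmo1 to remove the methyl groups, had 38.1, 52.1 and 54.1 CPM in shCxxc5, against 34.8, 43.8 and 42.4 CPM in shCtrl, and rose by 0.30 (SE 0.06, edgeR adjusted p = 0.000869) on the log2 scale in replicates 3 and 4. Hsd17b7, the reductase of the same demethylation, rose by 0.30 (SE 0.08, edgeR adjusted p = 0.00973), a call lost without shCxxc5 replicate 3 or shCtrl replicate 3 and under DESeq2. Its replicate 2 pair stood at -0.04.

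Ebp, the sterol isomerase, had 51.3, 51.4 and 59.1 CPM in shCxxc5, against 45.5, 48.2 and 48.5 CPM in shCtrl, with no overlap but a small gap. Its log2 fold change of 0.19 (SE 0.07, edgeR adjusted p = 0.0423) in replicates 3 and 4 dropped to 0.09 without shCxxc5 replicate 4 and was also no longer called without either shCtrl library, under DESeq2 or with library totals as scaling. Sc5d, the desaturase that follows, had 40.2, 44.2 and 47.4 CPM in shCxxc5, against 24.3, 40.5 and 42.2 CPM in shCtrl. It was low in shCtrl replicate 2 alone, so its pair ratios were 0.72, 0.13 and 0.17, and its log2 fold change of 0.15 (SE 0.07) in replicates 3 and 4 did not pass (edgeR adjusted p = 0.110). Dhcr7, the last reductase of the pathway, passed at 0.22 (SE 0.07, edgeR adjusted p = 0.0333) in replicates 3 and 4 and lost the call without shCxxc5 replicate 3 (0.15) or either shCtrl library, under DESeq2 and with library totals as scaling, while its replicate 2 pair stood at -0.23. Tm7sf2, a sterol reductase whose exons share 532 bases with Vps51 on the same strand, did not pass at 0.14 (SE 0.08, edgeR adjusted p = 0.243).

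The sequences before the starts of the sterol genes were searched for the motifs that SREBP and its usual partners bind. Promoters came from RefSeq (GRCm38.p6), as the 250 bases before each annotated start; 24 of the 29 genes were in the table, with 32 starts, and Fdft1, Sqle, Fdps, Stard4 and Abcg1 were not. Motifs were counted on both strands, and no matches of different motifs overlapped. The 4 synthesis promoters below belong to enzymes with a single start in the table and a motif there. They are those of smallest p in replicates 3 and 4. The Abca1 promoter is set beside them as the only promoter of the efflux arm that met the same rule. Abca1 was called lower in replicates 3 and 4, a call lost under DESeq2, and was higher in shCxxc5 in the replicate 2 pair. These promoters are written 5′ to 3′ in the direction of transcription and end at the base before the start. Capitals mark matches to TCACNCCAC (the sterol regulatory element that SREBP binds), to CCAAT (the NF-Y box) and to GGGCGG (the Sp1 GC box), or to their reverse complements. Hmgcs1 is chr13:119690101-119690350 on the plus strand, Lss is chr10:76531355-76531604 on the plus strand, Cyp51 is chr5:4104698-4104947 on the minus strand, Msmo1 is chr8:64733579-64733828 on the minus strand and Abca1 is chr4:53159896-53160145 on the minus strand.
Hmgcs1: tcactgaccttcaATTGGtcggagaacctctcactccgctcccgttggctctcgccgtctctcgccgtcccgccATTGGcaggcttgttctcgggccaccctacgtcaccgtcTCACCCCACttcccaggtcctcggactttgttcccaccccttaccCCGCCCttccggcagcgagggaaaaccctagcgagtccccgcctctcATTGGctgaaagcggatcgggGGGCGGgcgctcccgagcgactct
Lss: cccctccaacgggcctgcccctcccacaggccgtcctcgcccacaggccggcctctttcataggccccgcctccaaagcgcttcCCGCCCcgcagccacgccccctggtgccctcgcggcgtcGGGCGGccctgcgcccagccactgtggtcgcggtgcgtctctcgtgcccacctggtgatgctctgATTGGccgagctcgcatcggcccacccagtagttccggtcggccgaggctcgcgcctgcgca
Cyp51: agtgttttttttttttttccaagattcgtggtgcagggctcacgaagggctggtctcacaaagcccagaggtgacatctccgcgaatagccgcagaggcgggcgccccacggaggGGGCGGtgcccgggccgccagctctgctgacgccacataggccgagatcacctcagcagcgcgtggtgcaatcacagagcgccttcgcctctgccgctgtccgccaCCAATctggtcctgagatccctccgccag
Msmo1: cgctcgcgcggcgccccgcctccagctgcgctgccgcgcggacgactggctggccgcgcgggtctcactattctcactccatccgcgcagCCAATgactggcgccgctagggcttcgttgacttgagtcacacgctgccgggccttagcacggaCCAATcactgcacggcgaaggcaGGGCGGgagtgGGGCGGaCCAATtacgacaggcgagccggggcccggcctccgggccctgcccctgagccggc
Abca1: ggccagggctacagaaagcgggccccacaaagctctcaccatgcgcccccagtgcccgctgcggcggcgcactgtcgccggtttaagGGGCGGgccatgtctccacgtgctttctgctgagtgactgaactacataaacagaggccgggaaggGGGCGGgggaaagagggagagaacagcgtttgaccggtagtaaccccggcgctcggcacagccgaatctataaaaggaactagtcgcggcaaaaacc

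In the Hmgcs1 promoter the sterol regulatory element spelled out above covers bases 137 to 129 before the start, with CCAAT boxes on the reverse strand beginning at 237, 176 and 45 bases before it and GC boxes beginning at 92 and 24 bases before it. This was the only match to that strict spelling among the 32 starts of sterol genes, and 1.05% of all 32851 mouse starts of the table hold one. CCAAT was present at 21 of the 32 starts (65.6%), against 33.8% of all starts, and in 15 of the 16 synthesis genes in the table and 5 of the 8 other sterol genes. GGGCGG was present at 24 of the 32 starts (75%), against 32.7% of all starts, and in 14 of the 16 synthesis genes and 7 of the 8 others. The starts of the whole table were not limited to genes that passed the filter on low counts, as every sterol gene did. The 2 sets are therefore unlike. A gene was counted if any of its starts held the motif, and no share of all genes was counted in that way. The Lss and Cyp51 promoters each hold 1 CCAAT box, beginning 62 and 29 bases before the start, and the Msmo1 promoter holds 3, beginning 160, 96 and 55 bases before it. The Abca1 window holds 2 GC boxes and no CCAAT. Among the genes lower in shCxxc5 in each pair, Insig2 held CCAAT at a start, Nr1h2 held none and Abcg1 was not in the table. A match describes these letters only, and a window without one says nothing of the factor.

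The SREBP regulators did not move together. Srebf1 and Insig1 rose in shCxxc5 replicates 3 and 4, Srebf2, Scap and Insig2 did not pass, and in the replicate 2 pair Insig1 was the only one of the 5 with a positive ratio. Srebf2, the SREBP best known for driving cholesterol genes, had 155, 174 and 160 CPM in shCxxc5, against 198, 159 and 154 CPM in shCtrl. The highest value was that of shCtrl replicate 2, and replicates 3 and 4 differed little, with a log2 fold change of 0.10 (SE 0.04, edgeR adjusted p = 0.114). It passed only without shCxxc5 replicate 4 (edgeR adjusted p = 0.0487). Srebf1, which also drives fatty acid genes, had pair ratios of -0.20, 0.22 and 0.16 and rose by 0.20 (SE 0.04, edgeR adjusted p = 0.000446) on the log2 scale in replicates 3 and 4; its exons share 109 bases with the antisense gene Rai1 and 66 with a microRNA gene on its own strand. Scap, the SREBP escort, had a log2 fold change of 0.11 (SE 0.04, edgeR adjusted p = 0.0734) in replicates 3 and 4, and 0.0450 with the replicate block, and its exons share 985 bases with an antisense gene.

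Insig1, which retains SCAP in the endoplasmic reticulum and is itself an SREBP target, had 70.9, 76.9 and 75.3 CPM in shCxxc5, against 46.4, 61.5 and 69.2 CPM in shCtrl. The shCxxc5 libraries lay in a narrow band above all shCtrl libraries, which spread widely. Its log2 fold change was 0.33 (SE 0.16, edgeR adjusted p = 0.940) over all 6 libraries and 0.23 (SE 0.06, edgeR adjusted p = 0.00370) in replicates 3 and 4, where it was 0.14 (edgeR adjusted p = 0.182) without shCtrl replicate 3. The call of Insig1 was also lost without shCxxc5 replicate 3 (edgeR adjusted p = 0.0627) and under DESeq2 (adjusted p = 0.0503). Insig2, its paralog, which is not driven by SREBP in the same way, had 10.8, 12.1 and 11.7 CPM in shCxxc5, against 13.9, 13.2 and 13.3 CPM in shCtrl. The groups of Insig2 did not overlap and lay in the opposite order to those of Insig1, but its log2 fold change of -0.14 (SE 0.11) in replicates 3 and 4 did not pass (edgeR adjusted p = 0.419).

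In uptake and transport, Stard4, a cytosolic sterol carrier and SREBP target, had 64.5, 83.5 and 80.9 CPM in shCxxc5, against 90.6, 68.4 and 69.6 CPM in shCtrl. The order of the groups was turned round in replicate 2, where shCtrl held the highest of the 6 values and shCxxc5 the lowest. Stard4 rose by 0.26 on the log2 scale (SE 0.05, edgeR adjusted p = 0.000480) in replicates 3 and 4, and stood at 0.001 (SE 0.16, edgeR adjusted p = 1.0) over all 6 libraries. Mylip, an LXR-induced ubiquitin ligase that marks lipoprotein receptors for breakdown, had 14.5, 18.1 and 18.5 CPM in shCxxc5, against 15.1, 17.8 and 18.6 CPM in shCtrl. Each shCxxc5 value of Mylip lay beside the shCtrl value of its number, with a log2 fold change of 0.01 (SE 0.09, edgeR adjusted p = 0.957) in replicates 3 and 4.

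The efflux arm was lower in shCxxc5 replicates 3 and 4 by small margins. Abca1, which exports cholesterol to lipid-poor apolipoprotein, was scarce, at 5.66, 8.07 and 7.59 CPM in shCxxc5, against 4.52, 10.3 and 9.82 CPM in shCtrl. It was lower in shCxxc5 in replicates 3 and 4 and higher in replicate 2. Its raw counts were 163, 181 and 123 in shCxxc5, against 107, 232 and 146 in shCtrl. The log2 fold change in replicates 3 and 4 was -0.36 (SE 0.13, edgeR adjusted p = 0.0493). Abcg1, which exports cholesterol to mature high-density lipoprotein, had 53.6, 77.8 and 74.1 CPM in shCxxc5, against 59.2, 85.3 and 85.3 CPM in shCtrl, so it was lower in each pair, by a steady 0.14, 0.13 and 0.20 on the log2 scale. Its log2 fold change was -0.16 (SE 0.05, edgeR adjusted p = 0.0244) in replicates 3 and 4 and -0.16 (SE 0.20, edgeR adjusted p = 0.946) over all 6 libraries. Both calls were lost without any 1 of the 4 libraries and under DESeq2 (adjusted p = 0.286 for Abca1 and 0.156 for Abcg1), and that of Abca1 also without a filter on low counts. Nr1h2, the LXR found in most tissues, had 63.6, 55.3 and 56.4 CPM in shCxxc5, against 84.4, 57.0 and 62.2 CPM in shCtrl; it was lower in each pair and did not pass in replicates 3 and 4 (-0.08, SE 0.06, edgeR adjusted p = 0.369).

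The level of many sterol genes also differed between replicate 2 and replicates 3 and 4. In a fit with the hairpin and an indicator of replicate 2, 16 of the 29 genes were lower in replicate 2, where 18.7% of all 14637 genes were, and 2 were higher, where 17.7% were. The 16 comprised 13 synthesis enzymes with Mylip, Abca1 and Abcg1, and the 2 higher genes were Scap and Nr1h2. The largest differences, as log2 of replicate 2 over replicates 3 and 4, were those of Hmgcs1 at -1.24 (SE 0.10, edgeR adjusted p = 0.000416), Acat2 at -1.0 (SE 0.08, edgeR adjusted p = 0.000471), Msmo1 at -0.84, Abca1 at -0.80, Fdft1 at -0.70 and Cyp51 at -0.62. Of the 16 lower calls, 11 held without any 1 library, and those of Fdps, Sc5d, Dhcr7, Mylip and Abca1 did not, the value of Abca1 running from -1.16 without shCxxc5 replicate 2 to -0.47 without shCtrl replicate 2; of the 2 higher calls, neither did, Scap being lost without either shCtrl library of replicates 3 and 4 and Nr1h2 without any 1 of the 4. Lss and Ebp, at -0.17 and -0.10, were among the synthesis enzymes that did not pass. The replicate 2 libraries are also those with low Ly6a and high megakaryocyte markers, and 7 of the 12 S phase genes were lower in them; the part of these in the sterol levels was not tested, and the labels do not say what the number stands for.

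The hairpin ratio of the replicate 2 pair differed from that of replicates 3 and 4 for 13 of the 29 sterol genes, by a fit with an interaction term. It was lower in replicate 2 for 9 genes, where 19.0% of all genes were, and higher for 4, where 16.8% were, a count near the share of the whole table. Its error comes from replicates 3 and 4 alone, with 2 residual degrees of freedom, and each replicate 2 library is taken to vary as those do. Among the synthesis enzymes 13 of 19 did not pass it, Sqle, Cyp51, Fdps and Acat2 among them. Among the regulators, 4 of 5 did.

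Compared per kilobase of exon, the sterol genes spanned a wide range of levels, from 0.747 CPM per kb for Abca1 to 70.1 CPM per kb for Hmgcs1, as means over the 6 libraries. Msmo1 (68.7), Sqle (53.0), Srebf1 (47.3), Scap (40.5) and Cyp51 (39.9 CPM per kb) followed Hmgcs1. The spread of Hmgcs1 over the 6 libraries, 35.4 to 104 CPM per kb, covered the means of the next 5 genes, so that order does not hold library by library. In both libraries of replicate 2 Srebf1, at 46.6 CPM per kb in shCxxc5 and 53.7 in shCtrl, stood above Hmgcs1, at 37.0 in shCxxc5 and 35.4 in shCtrl. So did Msmo1, at 45.3 in shCxxc5 and 44.6 in shCtrl, and Sqle, at 48.1 in shCxxc5 and 40.0 in shCtrl. In shCtrl replicate 4 Msmo1 also stood above Hmgcs1, at 75.2 against 72.0 CPM per kb. Idi1 (1.5), Insig2 (4.23), Hsd17b7 (4.68) and Mylip (5.28 CPM per kb) were the lowest after Abca1. Of the LXR and efflux genes, Nr1h2 averaged 31.5 and Abcg1 10.6 CPM per kb. Lengths are those of the merged exons of protein-coding transcripts in GENCODE M21, which may be longer than the transcripts these cells use.

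**Figure D5:**
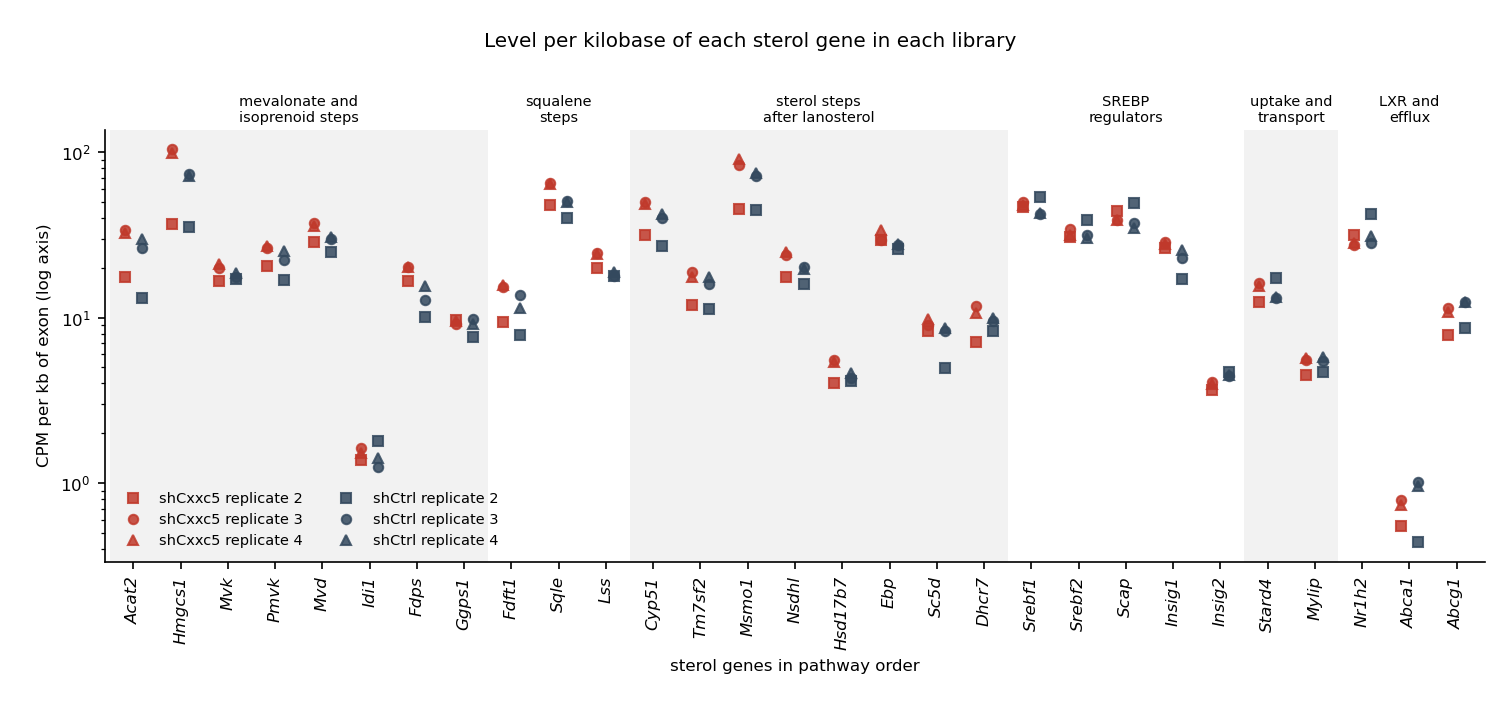
CPM per kb of exon (y axis, log scale) of each sterol gene (x axis), with shCxxc5 libraries in red on the left and shCtrl libraries in blue on the right of each gene, and squares, circles and triangles for replicates 2, 3 and 4. Hmgcs1 and Msmo1 top the plot and fall in the replicate 2 squares, and Abca1 and Idi1 lie lowest.

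Genes beyond the 29 were taken from 5 lists chosen for function and not for how they moved, with earlier results of these data known. None of their genes passed edgeR's test over all 6 libraries, and the counts, medians, fold changes and p-values given for them come from replicates 3 and 4 unless another fit is named. In the fatty acid synthesis list, part of which SREBP also drives, 8 of 15 genes rose in shCxxc5 replicates 3 and 4, where 11% of all genes tested rose, and 2 fell, where 9.00% did, with a median log2 fold change of 0.19. Fasn, fatty acid synthase, had 632, 803 and 747 CPM in shCxxc5, against 760, 592 and 553 CPM in shCtrl, so its replicate 2 pair ran the other way; it rose by 0.44 (SE 0.04, edgeR adjusted p = 4.74e-10) on the log2 scale in replicates 3 and 4. Aacs, which feeds ketone bodies into acetoacetyl-CoA, had 117, 159 and 157 CPM in shCxxc5, against 90.9, 110 and 118 CPM in shCtrl, and rose by 0.48 (SE 0.04, edgeR adjusted p = 2.90e-09). Aacs was higher in shCxxc5 in each pair.

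Of 18 genes of sterol transport and storage, 3 rose in replicates 3 and 4, where 11% of all genes tested rose, and 4 fell, where 9.00% did, with a median of -0.06. Tmem97, a membrane protein that binds the lysosomal cholesterol transporter NPC1, had 54.0, 62.1 and 57.2 CPM in shCxxc5, against 41.1, 40.7 and 45.6 CPM in shCtrl, with no overlap between the groups and a log2 fold change of 0.49 (SE 0.07, edgeR adjusted p = 2.97e-06). Vldlr, a lipoprotein receptor, had 200, 89.0 and 89.8 CPM in shCxxc5, against 402, 113 and 118 CPM in shCtrl, and fell by 0.36 on the log2 scale (SE 0.05, edgeR adjusted p = 1.10e-06). Soat2, a sterol esterifying enzyme that is a different gene from Acat2, was picked after its values were seen; it had 12.9, 5.48 and 6.30 CPM in shCxxc5, against 30.8, 10.3 and 10.4 CPM in shCtrl, and fell by 0.82 (SE 0.14, edgeR adjusted p = 7.55e-05). Both Vldlr and Soat2 were highest in the replicate 2 libraries, where megakaryocyte markers were also high and higher in shCtrl; the part of the cells with these markers in the difference was not tested.

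Of 11 tested genes of the LXR partners and oxysterol enzymes, 0 rose and 2 fell in replicates 3 and 4, where 9.00% of all genes tested fell. They were the corepressor Ncor1, which had 295, 259 and 249 CPM in shCxxc5, against 385, 306 and 287 CPM in shCtrl (log2 fold change -0.22, SE 0.04, edgeR adjusted p = 0.000119), and the transporter Abca7, with 216, 237 and 251 CPM in shCxxc5, against 331, 266 and 272 CPM in shCtrl (-0.14, SE 0.04, edgeR adjusted p = 0.0106). Both were lower in shCxxc5 in each pair. Ch25h and Abcg4 were too low to test. In the isoprenoid branch, which carries farnesyl and geranylgeranyl groups to proteins, dolichol and coenzyme Q, 3 of 12 genes rose and 0 fell in replicates 3 and 4, where 11% of all genes tested rose, with a median of 0.07. Pdss1, which builds the coenzyme Q tail, stood at 0.30 (SE 0.08, edgeR adjusted p = 0.0117) and Rabggtb, a subunit of the Rab prenyltransferase, at 0.17 (SE 0.06, edgeR adjusted p = 0.0273). Of 11 genes of SREBP processing and turnover, 2 rose and 1 fell in replicates 3 and 4, counts near the shares of the whole table. The 2 that rose were Fbxw7, a ubiquitin ligase subunit that degrades nuclear SREBP, at 0.28 (SE 0.06, edgeR adjusted p = 0.00192), and Rnf145, a sterol-responsive ubiquitin ligase, at 0.15 (SE 0.04, edgeR adjusted p = 0.00828). The replicate 2 pair of Fbxw7 ran the other way, at -0.26, and differed from replicates 3 and 4 by -0.54 (interaction, edgeR adjusted p = 6.89e-05); over all 6 libraries Fbxw7 stood at 0.11 (edgeR adjusted p = 0.945). Rnf145 was higher in shCxxc5 in each pair.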

How the data were processed

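The submitters' processing notes name STAR 2.5.2b, featureCounts 1.5.1, DESeq2 and the mouse build GRCm38 (mm10). The authors deposited raw read counts per Ensembl gene for the 6 libraries, per the file headers. The sources used here do not give the annotation release or whether counting used strand, so overlapping antisense genes may share reads. Symbols and exons came from GENCODE M21, in which 49412 identifiers matched; the other 259 held 0.0557% of counts.

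From these counts, edgeR 4.0.16 in R 4.3.3 was run with TMM scaling, filterByExpr (14637 genes over 6 libraries, 14193 over replicates 3 and 4) and a robust quasi-likelihood fit of the hairpin alone. P-values were adjusted by Benjamini-Hochberg over all genes tested. Further fits added a replicate 2 indicator or its interaction with the hairpin. A standard error (SE) is the log2 fold change over the root of the F statistic. The code was tested on simulated counts. Those had larger changes than the sterol genes and less spread than the 6 libraries, so they do not measure how well small differences are found here. The members, the lists and the replicates 3 and 4 comparison were chosen with earlier results of these data known.

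All members are named. Described library by library were the 3 of smallest unadjusted p per arm over all 6 libraries, and those with 1 sign in all 3 pairs that passed in replicates 3 and 4. The 2 of smallest p there were named from each other list. Some genes of the pathway are not reported here.

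As a check of pairing, each library's deviation from its group mean was correlated over genes with that of its equal number in the other group. This gave 0.67, 0.554 and 0.489 for numbers 2, 3 and 4, but unequal numbers 3 and 4 gave 0.489 and 0.475. Each group mean includes the replicate 2 library that stood apart, so the check cannot show whether numbers 3 and 4 pair the samples. The numbers were still taken as pairs, for description and for the replicate block. Within a group, replicates 3 and 4 differed by a mean chi-square per gene of 2.42 (shCxxc5) and 2.45 (shCtrl), more than sampling noise. The medians were 0.779 and 0.941. The 2 numbers were counted as separate, but such an excess cannot tell separate infections from separate library preparations. The common coefficient of variation that edgeR fitted between libraries was 0.0294 in replicates 3 and 4, against 0.312 over all 6 libraries. Alternatives were DESeq2 1.42.0, RLE scaling, library totals, no filter, the replicate block and leaving out each library. No molecular identifiers were used, so counts are not independent molecules.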

Additional observations from a re-analysis of the deposited data

Results flagged for a closer look

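For 13 sterol genes the hairpin difference of the replicate 2 pair differed from that of replicates 3 and 4 by edgeR's interaction test at an adjusted p of 0.05. The same test called 16.8% of all 14637 genes tested higher and 19.0% lower, so many genes outside the sterol set differed too. The values below are the log2 ratio of shCxxc5 over shCtrl in replicate 2 minus that in replicates 3 and 4. For 5 of the 13 the interaction also held under DESeq2 and without any 1 library that could be left out. These were Stard4 at -0.75 (SE 0.09, edgeR adjusted p = 2.71e-09), Srebf2 at -0.45 (SE 0.07, edgeR adjusted p = 3.66e-06), Srebf1 at -0.39 (SE 0.07, edgeR adjusted p = 6.92e-06), Hmgcs1 at -0.40 (SE 0.07, edgeR adjusted p = 9.93e-06) and Sc5d at 0.58 (SE 0.12, edgeR adjusted p = 0.000148).

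For the other 8, DESeq2 did not call the interaction. Insig1 (0.38), Scap (-0.25) and Nr1h2 (-0.32) kept it in edgeR without any 1 library. Ggps1 (0.37) and Dhcr7 (-0.44) lost it without shCxxc5 replicate 3, Lss (-0.26) without shCxxc5 replicate 3 or shCtrl replicate 3, and Msmo1 (-0.23) and Abca1 (0.69) without shCxxc5 replicate 4 or shCtrl replicate 3. Without a filter on low counts Lss (edgeR adjusted p = 0.0528) and Msmo1 (edgeR adjusted p = 0.103) also lost it. The replicate 2 pair has 1 library per group, and in it the granulocyte and monocyte progenitor markers summed to 5810 CPM in shCxxc5, against 801 CPM in shCtrl. Megakaryocyte markers summed to 1650 CPM in shCxxc5, against 6980 CPM in shCtrl. Mast cell and basophil markers summed to 1450 CPM in shCxxc5, against 248 CPM in shCtrl, and erythroid markers to 163 against 48.2 CPM. The part of this difference between the replicate 2 libraries in the 13 values was not tested.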

How the results depend on the processing

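No sterol gene called in a fit changed sign under any alternative run for that fit. The median of the regulators over all 6 libraries, 0.005, had no stable sign and ran from -0.079 to 0.169 when 1 library was left out. DESeq2 called 19 genes over all 6 libraries, where edgeR called 0, and 1353 genes in replicates 3 and 4, where edgeR called 2833; the sterol genes called lower there were 0 of 29 under DESeq2 and 1 without a filter, against 2. DESeq2 called 2390 genes by the interaction, against 5235, with 1 sterol gene higher and 4 lower, against 4 and 9. With the replicate block the median log2 fold change of the efflux arm over all 6 libraries was -0.16, against -0.21; the paired fit called 0 genes over all 6 libraries and 3300 in replicates 3 and 4, and beside Pmvk and Scap, given above, it changed the call of no other sterol gene. With library totals as scaling the median of the regulators in replicates 3 and 4 was 0.079, against 0.106.

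Leaving out 1 library at a time gave these ranges. In a fit that leaves 1 library in a group, that library is assumed to vary like the others. Over all 6 libraries the medians ran from 0.10 to 0.36 for synthesis and from -0.317 to -0.068 for efflux. In replicates 3 and 4 the calls ran from 1507 to 2043 genes, the sterol genes from 11 to 16 higher, with 0 lower in each, and the median of the regulators from 0.077 to 0.155. For the replicate 2 level the calls ran from 3183 to 8816 genes, with 0 to 5 sterol genes higher. Depth limits Abca1 and Idi1, which had 64 to 232 counts a library; the causes of these changes were not tested.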
